A study of Saccharomyces cerevisiae with 1245 samples.

Results

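The nuclear tRNA genes of budding yeast were examined for peaks of proteins other than the transcription machinery of RNA polymerase III. The regions were chosen by annotation alone: they are the 143 genes on the plus strand and 132 on the minus strand with biotype tRNA, among 6431 nuclear genes of the R64 annotation (genome build sacCer3), and a peak was placed at a tRNA gene when it lay within 250 bp of it. The data are ChIP-exo peak lists, in which chromatin is immunoprecipitated and an exonuclease trims the DNA up to the crosslinked protein, so that each peak is a single base position. The study profiled chromatin-bound proteins across the genome. Lists of 1115 libraries for 716 targets were used here, and 30118 of their 360480 peaks (8.35%) lay at a tRNA gene. Every library came from cells grown in YPD, a rich medium, at 25 °C to an optical density of 0.8 to 1.0 and crosslinked with 1.0% formaldehyde, without heat shock. Targets carried a TAP tag or an HA tag on the protein itself or were reached with another antibody, and most targets had 1 or 2 libraries (1.55 on average outside the polymerase III machinery). No other genotype or treatment is given in the labels of these libraries, and lists of the untagged control samples were not analysed here.

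tRNA genes are transcribed by RNA polymerase III from promoters that lie inside the gene. TFIIIC recognises the A and B boxes within the transcribed sequence and places TFIIIB, which contains TBP, just upstream of the start, and TFIIIB recruits the polymerase. In yeast these short, highly transcribed genes are also known as landing sites of Ty1 and Ty3 retrotransposons, as places where condensin and the cohesin loader can gather, and as regions from which nucleosomes are largely missing.

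Peaks of 20 targets were set aside as the polymerase III machinery: subunits of RNA polymerase III, the subunits it shares with RNA polymerase I, TFIIIB, TBP (labelled Spt15) and TFIIIC. Of their 39 libraries, 35 reached at least 268 tRNA genes, and every tRNA gene had a peak in at least 1 of them. The same 35 libraries, leaving out TBP, had a peak in only 0.0537% to 0.488% of 20497 windows of the same median length (573 bp) over the rest of the genome. The exceptions were the polymerase subunits Rpc31 and Rpc82, with 28 and 15 peaks and none at a tRNA gene, and the TFIIIC subunit Tfc4, with 48 and 175 genes. The remaining 696 targets, in 1076 libraries, contributed 18717 peaks at tRNA genes, 5.43% of their 344695 peaks. All results from here on concern these targets.

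Libraries of the same target often differed, and this touches nearly every count below. Of the 1076 libraries, 606 had no peak at any tRNA gene, 276 reached 1 to 13 genes, 128 reached 14 to 99, 46 reached at least 100 but fewer than 250, and 20 reached 250 or more. The 66 libraries with 100 or more genes, of 54 targets, held 68.2% of all these peaks at tRNA genes. Among 50 targets with several libraries and at least 1 library of 100 or more genes, 34 had another library under 14 genes and 10 had every library at 100 or more. Peak number moved with this: the 66 libraries had a median of 654 peaks and the others 57. Of 307 libraries within the range of peak numbers of those 66 (285 to 7062), 147 reached fewer than 14 tRNA genes. The part of peak number was not tested.

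Antibody and library series moved with it too. With TAP-tag antibody, 51 of 1002 libraries (5.09%) reached 100 or more genes, with HA-tag antibody 0 of 37, with antibodies credited to the Weil Lab 11 of 22, and with Abcam ab56 3 of 4. For 19 targets with both TAP-tag and Weil Lab libraries, the median number of tRNA genes was 7 (0 to 261) with the tag and 98 (0 to 273) with the Weil Lab antibody, and the latter was above every TAP-tag library of the target for 12 of the 19. Among libraries whose titles carry a number in the 20000s, 18 of 58 reached 100 or more genes, while among those numbered 14000 to 15999 none of the 221 and 83 libraries in the 2 blocks of 1000 did, although 14 libraries of the polymerase III machinery in the first of these blocks were at their usual level or are among the exceptions named above. Antibody and title number overlap. Weil Lab libraries such as those of Ada1, Rap1 and Ydr1 carry the numbers 19993, 19998 and 20024, and the Abcam ab56 libraries 8934 to 8944. What the title numbers stand for is not given in the labels. Neither their part in the results nor that of the antibody was tested.

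**Figure D1:**
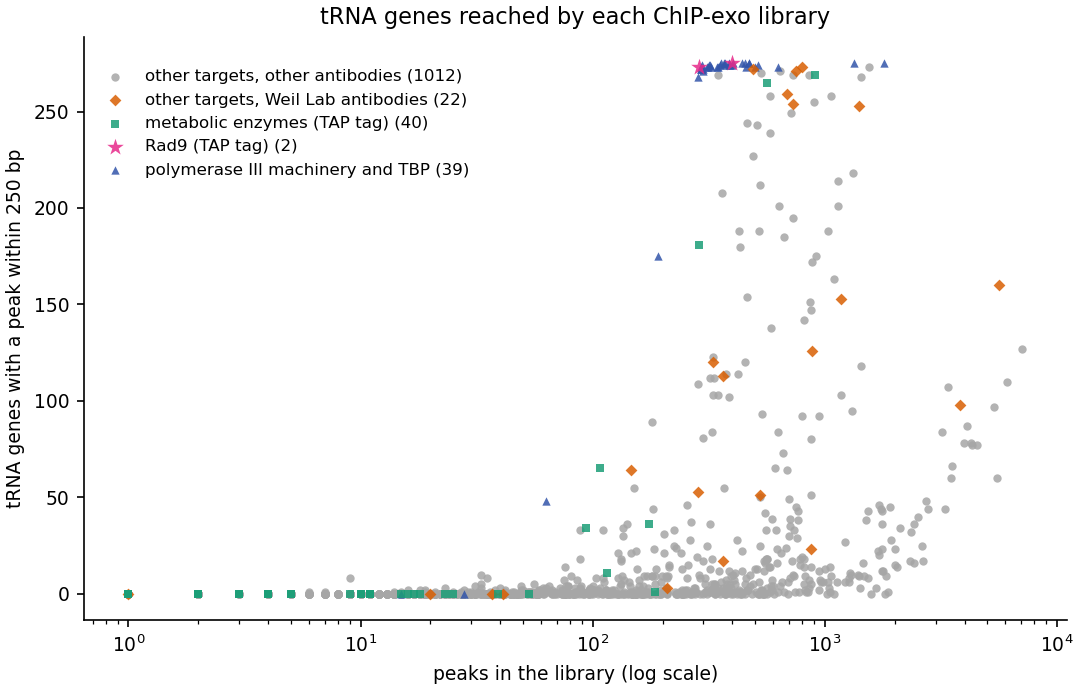
Each point is 1 library, with its number of peaks on a log axis and the number of tRNA genes with a peak within 250 bp. Libraries of the polymerase III machinery and both Rad9 libraries mostly lie at the top of the plot at 285 to 514 peaks or, for TBP, more, while most other libraries lie near 0 and the remainder are spread from there to the top.

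A target was called at tRNA genes when, in every library it had, at least 5% of the genes (14 genes) had a peak and this percent was at least 3 times that of the other genome windows. Of 696 targets, 33 were called (4.74%), 17 of them with several libraries and 16 with a single one. They included regulators of polymerase III and of TBP, enzymes that act on tRNA, a DNA damage checkpoint protein, regulators of ribosomal protein genes, mating regulators and some metabolic enzymes. With only peaks in the scores at or above the median of each list, 17 targets were called, all among the 33. Without the second library of each target, 81 were called.

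The target that most resembled the polymerase III machinery in its numbers was Rad9, the adaptor protein of the DNA damage checkpoint. Its 2 TAP-tag libraries had 286 and 399 peaks, of which 95.1% and 84.0% lay at tRNA genes, and they reached 273 and all of the tRNA genes (mean 274 ± 1.41, SD, n = 2). Of the other genome windows, 0.21% had a Rad9 peak in either library. The median peak stood 15 and 13 bp after the gene start, where the polymerase III subunits had a mean of 14.7 ± 1.60 bp (SD, n = 7 subunits). Both libraries thus had most of their peaks at tRNA genes, close to the position of polymerase III. The median position does not set Rad9 apart: all tRNA peaks of targets outside the machinery had a median of 13 bp (quartiles -6 and 59 bp). They differed in score: 98.2% of the tRNA peaks of the second library and none of the first had the highest score of the deposited scale. Nothing in the peak lists tests whether the tagged protein in these libraries was the one labelled.

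Among known regulators of polymerase III, Maf1, the conserved repressor that binds the polymerase when growth slows, reached 269 and 208 genes in its 2 libraries (mean 239 ± 43.1, SD, n = 2), against 0.785% of other windows. Of its peaks, 76.6% and 56.8% lay at tRNA genes. CK2, a protein kinase that phosphorylates Maf1 and TFIIIB, has catalytic subunits Cka1 and Cka2 and regulatory subunits Ckb1 and Ckb2. Cka1 reached 55 and 258 genes, against 1.37% of other windows, and Cka2 reached 212 genes in one library and 0 in another that had 5 peaks. Ckb2 reached only 6 and 5 genes with 112 and 332 peaks, and Ckb1 none with 5 peaks. Both high libraries, of Cka1 and Cka2, carry title numbers in the 20000s, and no library of Ckb1 or Ckb2 does. For these high libraries subunit and title number cannot be told apart. At nearby title numbers, Cka1 reached 55 genes with 150 peaks (12841) and Ckb2 6 genes with 112 peaks (12875), 1 library each. As a list, CK2 averaged a 27% share of its peaks there (SD 20.8 over 3 targets with at least 20 peaks), set against 4.68% for 442 other targets, which did not pass (two-sided permutation test over targets, 100000 resamples, p = 0.0225, adjusted p = 0.122 over 38 lists). TFIIIA, labelled Pzf1, which serves the 5S rRNA genes, had 6 peaks and none at a tRNA gene.

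Factors that act on TBP or bind melted promoter DNA had 6 of 10 libraries at 100 or more tRNA genes. Sub1, a single-stranded DNA-binding coactivator known at polymerase II and polymerase III genes, reached 273 genes in 1 of 2 TAP-tag libraries and in the Weil Lab library, and 90.5% of the genes in the other TAP-tag library (mean 265 ± 13.9 genes, SD, n = 3), against 5.43% of other windows. Its 3 libraries lay close together in spite of the different antibody. NC2 is a dimer that binds TBP on DNA and blocks TFIIB. Its subunit Ncb2 reached 243 and 255 genes (SD 8.49, n = 2), against 2.91% of other windows. Ydr1, another name of the same subunit, reached 51 genes with a Weil Lab antibody, and the partner Bur6 reached 39, 23 and 268 genes. Mot1, an ATPase that strips TBP from DNA, reached 64 genes in 1 library, against 2.6% of other windows. All 10 libraries of these proteins reached at least 23 tRNA genes, whereas 18.0% of all 1076 libraries reached 14 or more. The 10 lists were long, at 510 to 1554 peaks. Of 307 libraries with 285 to 7062 peaks, 147 reached fewer than 14 genes. The part of list length was not tested. By share of peaks the list had a mean of 19.1% (SD 13.7, n = 5 targets) against 4.67% for 440 others and did not pass (two-sided permutation test over targets, p = 0.0304, adjusted p = 0.145). Ydr1 and Ncb2 count here as separate targets, as labelled, although they are 1 protein. With both names counted as 1 target, the list did not pass either (adjusted p = 0.221 in the permutation test) and 32 targets were called.

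Enzymes that act on tRNA were mixed. Ncl1, which methylates cytosines in tRNA, reached 270 genes in its single library, against 1.04% of other windows. Cca1, which adds the CCA end, reached 239 and 102 genes (mean 171 ± 96.9, SD, n = 2), against 1.91%. The remaining proteins of this list had short lists of peaks: Pus4, a pseudouridine synthase, reached 8 genes with 9 peaks, and Trm1, a guanosine methyltransferase, and Grs1, glycyl-tRNA synthetase, had none with 17 and 11 peaks. Kae1, a subunit of the complex that makes threonylcarbamoyladenosine, had none with 241 peaks. So 2 of 6 targets of this list were called. By share of peaks the 3 targets with enough peaks had a mean of 27.6% (SD 25.4) against 4.68% for 442 others (two-sided permutation test over targets, p = 0.0214, adjusted p = 0.122). Without Rad9 among the others, the same list just passed (adjusted p = 0.0497).

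Among proteins that shape chromosomes, condensin and Scc2 reached few tRNA genes and Scc4 more. Pob3 and Spt16 of FACT reached up to 43, with long lists and below the ratio needed for a call. Condensin, which compacts chromosomes, had Brn1 at 4 and 0 genes, Smc4 at 2 and 0, Ycs4 at 3 and 17 and Ycg1 at 0, with 9 to 132 peaks in a library. The cohesin loader had Scc2 at 2 and 1 genes and Scc4 at 36 genes in 1 library, against 0.468% of other windows for Scc4. The condensin and cohesin loader lists were short, at 9 to 141 peaks a library, which limits what they can show. FACT, a histone chaperone of transcribed chromatin, had Pob3 at 38 and 16 genes and Spt16 at 43 and 4, with more than 500 peaks in each of those libraries. Pob3 was at 13.8% and 5.82% of tRNA genes, against 5.71% and 2.23% of other windows. Spt16 was at 15.6% and 1.45%, against 6.10% and 2.61%. None of these reached 3 times the other windows. Every Pob3 peak at a tRNA gene and every peak of the Spt16 library with 42 such peaks lay downstream of the tRNA gene zone. Their medians were 183, 231 and 197 bp after the gene start. Nhp6a, the small DNA-bending protein that works with FACT, differed from both: one library reached 269 genes, with 93.3% of these peaks on the start side of the gene, and the other reached 3 with 33 peaks.

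Of 138 sequence-specific factors 10 were called (7.25%, against 4.74% of all targets). Fhl1, one of them, and its coactivator Ifh1, which switch on ribosomal protein genes, were profiled with Abcam ab56: Ifh1 reached 258 and 172 genes, against 3.33% of other windows, and Fhl1 92 and 163, against 3.4%. Reb1, a general regulatory factor that keeps promoters open, reached 151 and 214 genes, against 4.2%. Stp2, which responds to external amino acids, reached 227 and 112, against 1.44%. Asg1, a zinc cluster regulator, reached 138 and 142, against 3%. Asg1 had the closest pair of libraries of these 5. The tRNA peaks of Fhl1, Reb1 and Asg1 were among the weaker of their own lists, with median score percentiles of 15 and 16.6, 17.6 and 22, and 26.6 and 23.8. Rap1, which works with Fhl1 and Ifh1 at ribosomal protein genes, had 2 genes in each TAP-tag library and 253 in the Weil Lab library, and was not called. As a class, 110 sequence-specific factors with enough peaks had a mean share of 5.18% (SD 7.52) against 4.72% for 335 others (two-sided permutation test over targets, p = 0.660, adjusted p = 0.870).

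Single libraries accounted for other called targets. Ada1, a core subunit of the SAGA coactivator, reached 272 genes with a Weil Lab antibody, against 0.839% of other windows. Other SAGA subunits were lower in most libraries: over the 32 SAGA libraries the median was 2 genes (0 to 272), and 4 reached 100 or more. Most of these differ from Ada1 in antibody. With Weil Lab antibodies Ada2 reached 259 genes, against 3 and 45 with the TAP tag. Sgf73 reached 113 with a Weil Lab antibody, Sgf29 64 and Gcn5 53, while Spt3 and Spt7 reached 0. Set5, a histone methyltransferase, reached 109 genes, the copper-responsive regulator Cup2 84, and YLR278C, a zinc cluster protein, 73. Scc4 was described above, and Pup1, a subunit of the proteasome, reached 33. Esc2, a protein of genome stability with SUMO-like domains, was called from 2 libraries, at 89 and 50 genes. The remaining called targets were lower: Sgf11, a SAGA subunit, at 33 and 21 genes, Rox1, the repressor of hypoxic genes, at 28 and 21, Vid27 and Wtm2 at 18 each, and Uba2, a SUMO-activating enzyme subunit, and Yrm1, a zinc cluster factor, at 14 each. Among Ada1, Set5, Cup2, YLR278C, Scc4, Pup1 and Esc2, no library showed more than 8.86% of its tRNA peaks at the highest score of the deposited scale.

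**Figure D2:**
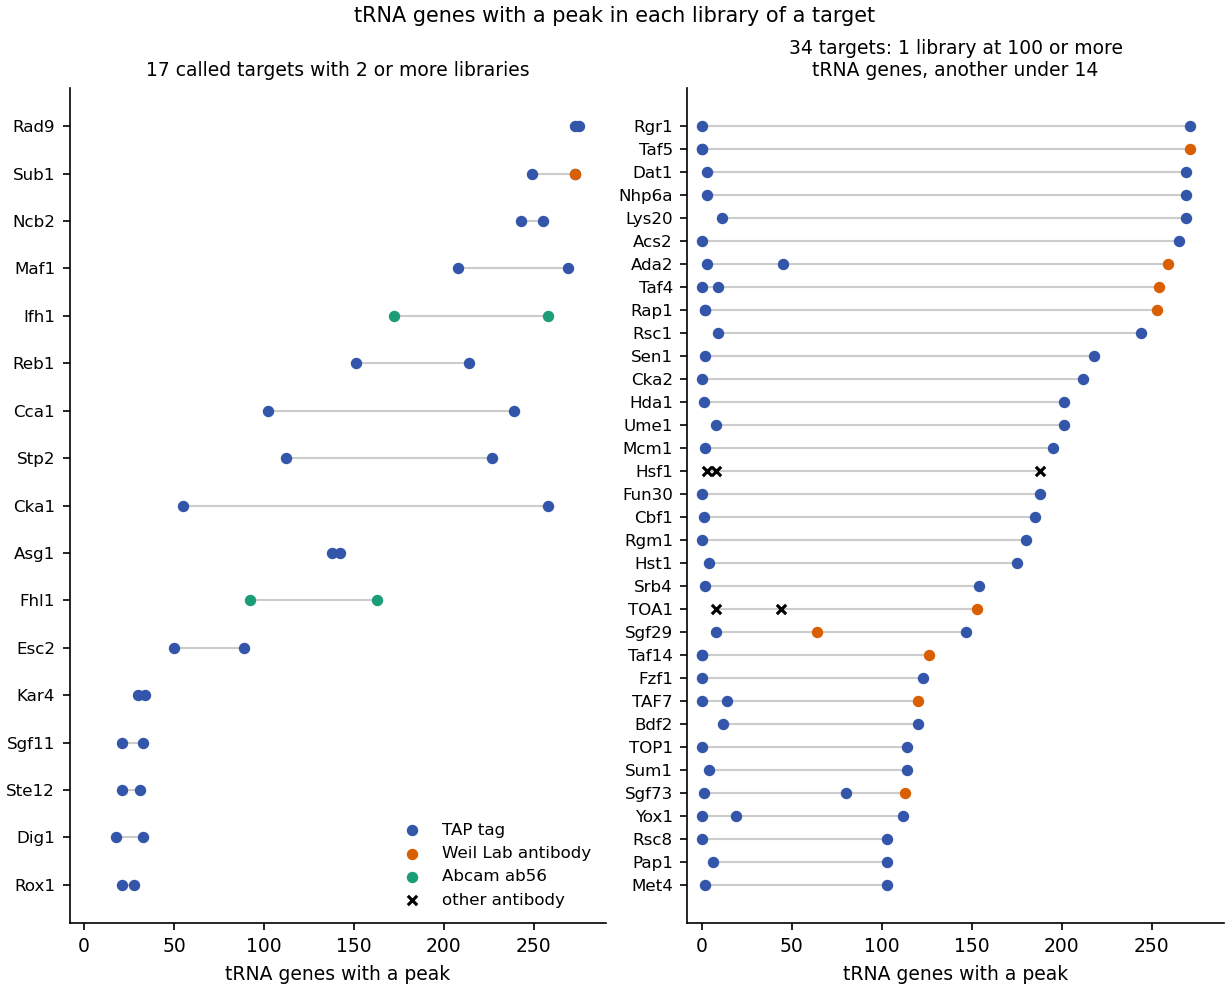
Points are libraries and show the number of tRNA genes with a peak, for the 17 called targets with several libraries (left) and for 34 targets with 1 library of 100 or more genes and another under 14 (right). Rad9, Sub1, Ncb2 and Asg1 have close points, while in the right panel lines span from near 0 to as much as 271 genes, often within the same antibody.

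Metabolic enzymes were the one list with a larger share of peaks at tRNA genes that passed the test. The 10 enzymes with at least 20 peaks in a library had a mean of 23.1% (SD 24.2, 0 to 61.3%) against 4.41% for 435 other targets (two-sided permutation test over targets, p = 0.00028, adjusted p = 0.0106), and 6 of the 10 lay above the median of the others. Gdh1, glutamate dehydrogenase, reached 181 genes, against 0.459% of other windows. Acs2, acetyl-CoA synthetase, reached 265 genes in one library and 0 in another with 2 peaks. Lys20 and Lys21, homocitrate synthases of lysine synthesis, reached 11 and 269 genes and 65 and 0 genes. The libraries of Acs2 and Lys21 that reached 0 genes had 2 peaks and 1 peak and were too short to enter the test. Both enzymes thus entered it through their high library alone, at shares of 46.2% and 55.6%. Hom6, homoserine dehydrogenase, reached 34 and Ddp1, a polyphosphate phosphatase, 36. The other 30 enzymes had at most 1 tRNA gene in any library. Over all enzyme libraries, 6 of 40 (15%) reached 14 or more genes, near the 18.0% of all libraries outside the polymerase III machinery. The call was lost without replicate 1, without replicate 2, with only scores at or above the median of each list and with a least list length of 5 peaks (adjusted p = 0.304, 0.0850, 0.128 and 0.0943).

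Peaks of the enzymes lay on the tRNA genes or just before their start. Of 833 enzyme peaks at tRNA genes, 67.9% stood on the start side, from 40 bp before to 25 bp after the gene start, 31.8% stood further inside or up to 30 bp past the gene, and 0.120% stood on each flank. Their median position was 7 bp after the gene start, with quartiles of -2 and 37 bp, and the median of the 33 called targets was 6 bp. None of these enzyme peaks had the highest score, against 89.5% of the machinery's peaks at tRNA genes. For all targets outside the machinery the figure was 7.86%.

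At the other end, 4 lists had a smaller share of peaks at tRNA genes than other targets. The Paf1 complex and CTD kinases, which travel with elongating RNA polymerase II, had a mean of 0.0701% (SD 0.0966 over 8 targets, adjusted p = 0.0270 in the permutation test). RNA polymerase I, which transcribes the ribosomal RNA genes, had 0.0462% (SD 0.122 over 7 targets, adjusted p = 0.0271), core histones with H2A.Z and H1 0.115% (SD 0.325 over 8 targets, adjusted p = 0.0313) and COMPASS, the H3K4 methyltransferase, 0.132% (SD 0.278 over 8 targets, adjusted p = 0.0322), all by the two-sided permutation test over targets. The other targets averaged 4.91% to 4.92%. Replicate numbers bore on these 4 calls: with values centred on the mean of their replicate number (replicate block) none of the 4 passed (adjusted p = 0.355, 0.350, 0.634 and 0.207 for COMPASS, the Paf1 complex and CTD kinases, RNA polymerase I and histones). Leaving out replicate 1 or replicate 2, no list passed in either direction. Histone libraries other than H2A.Z (Htz1) had no tRNA peak but also few peaks, at most 117. The lowest ratios of tRNA genes to other windows, among 56 targets with at least 500 peaks in every library, were those of Paf1 (1583 and 1101 peaks), Leo1 (1819 and 520), Rtf1 (1018), the anaphase-promoting complex subunit Apc5 (521) and the COMPASS subunit Spp1 (540 and 1057). These lists reached no tRNA gene, except the longer one of Spp1, which reached 1. Of the 56 targets, 25 had a smaller percent of tRNA genes than of other windows.

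Several general transcription factors of RNA polymerase II reached tRNA windows mainly through the flanks. Sua7 (TFIIB) reached 110, 127 and 160 tRNA genes, but 25.1% of other windows had a Sua7 peak too, and it was not called. In its TAP-tag libraries 27.1% and 27.4% of the tRNA peaks stood upstream of the gene zone and 72% and 71.2% downstream, with medians of 190 and 193 bp after the gene start. Sua7 had a peak at 104 of 132 tRNA genes with a coding gene start within 500 bp (78.8%) and at 76 of 143 without one (53.1%). The gap was wide for the TFIIH subunit Tfb4 (47.0% and 17.5%) and the TFIIE subunit Tfa2 (52.3% and 21.0%). It was narrower for the TFIIH subunits Ssl2 (43.9% and 30.8%) and Rad3 (43.9% and 34.3%) and for the TFIIE subunit TFA1 (42.4% and 37.1%). TOA1, a subunit of TFIIA, differed when its libraries were joined, with 59.8% near coding gene starts and 65.7% away from them. It then had a peak on the gene zone at 155 genes and in the flanks at 35. Sub1, by contrast, had a peak at 132 of 132 and 142 of 143, and Maf1 at 130 of 132 and 141 of 143. The Weil Lab library of Sua7 differed from the tagged ones, with 23.5% of its peaks on the start side and 18.4% inside the gene. The joined TOA1 counts rested mostly on its Weil Lab library, which reached 153 genes, against 8 and 44 with the HA tag. In the HA-tag library with 44 genes 42% of the tRNA peaks stood downstream, and in the Weil Lab library 1.84%.

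The position of a peak along the gene separated several targets that reached nearly the same genes. Over the machinery, TFIIIB peaks stood at a median of 10 bp after the gene start, polymerase III at 15, TFIIIC at 34 and TBP at -16, with TBP libraries at -16, -21 and 4. Maf1 stood at 10 and 8 bp, nearer the median of TFIIIB than that of the polymerase, with 37.7% and 27.5% of its peaks further inside the gene. NC2 varied between libraries: Ncb2 stood at -12.5 and -3 bp, with 40.8% and 27.1% of its peaks further inside the gene, Ydr1 at 22.5 and Bur6 at 43, 46 and -17, the last being its library with 268 genes. Sub1 stood well inside the gene in each of its 3 libraries, at 56, 52 and 54 bp, with 85.4%, 90.1% and 92.4% of its peaks in the inner part. In genes of 71 to 76 bp (192 genes), Sub1 peaks lay a median of 53, 52 and 53 bp from the start and 19, 20 and 18 bp from the end. In the 83 genes of 82 bp or more they lay 66, 48 and 62 bp from the start and 34, 44.5 and 30 bp from the end, so neither distance was fixed across lengths. By comparison, the TFIIIB subunit Brf1 stayed at 9 and 10 bp from the start in both length groups. The libraries of Sub1 also ranked these peaks above the middle of their lists, at median score percentiles of 54.5, 79.6 and 67.6.

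**Figure D3:**
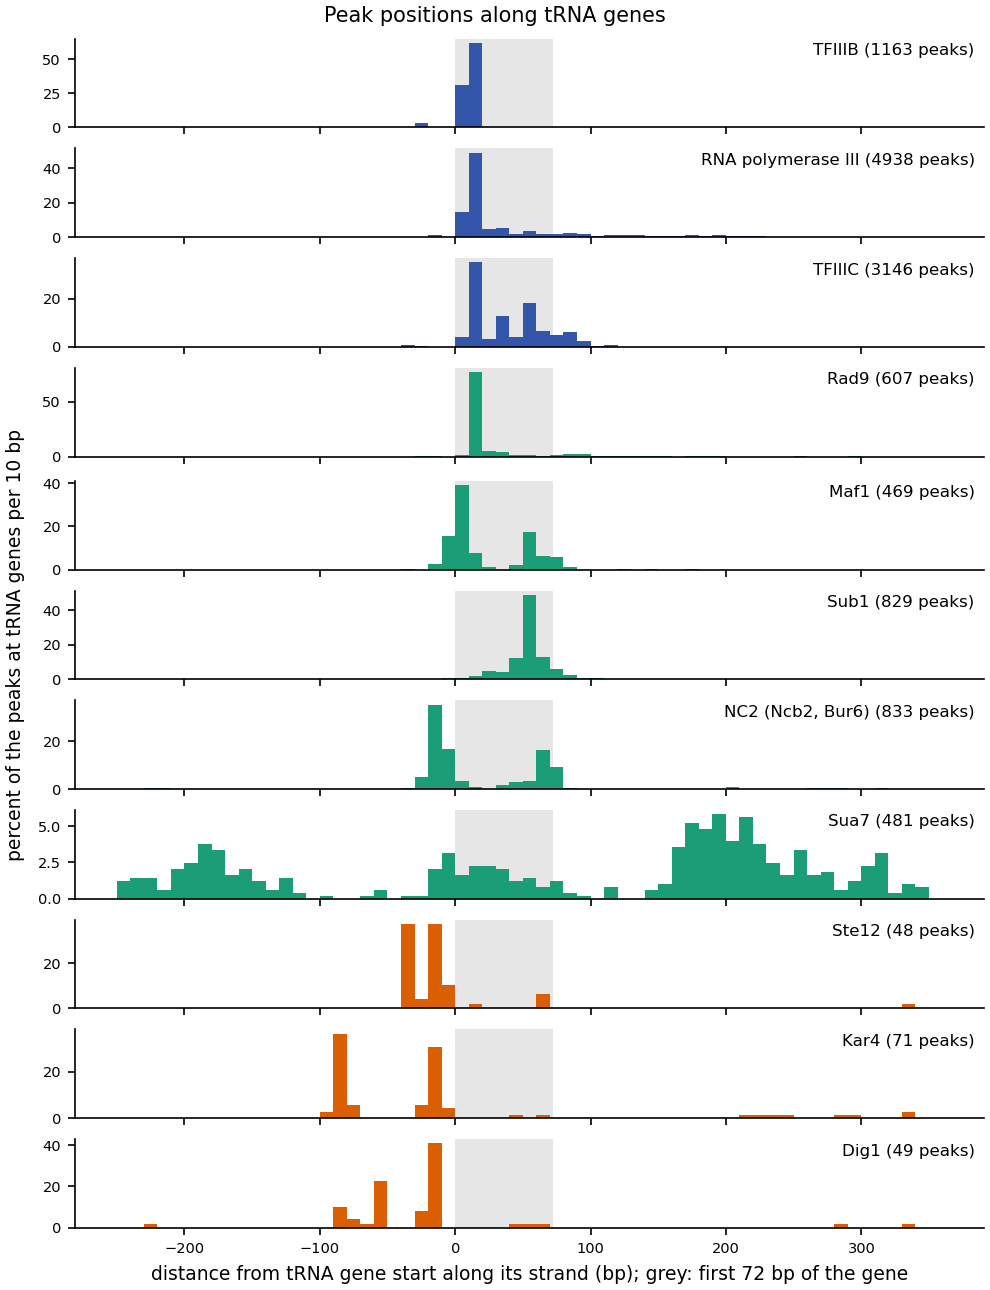
Bars give the percent of the peaks at tRNA genes in steps of 10 bp by distance from the gene start along its strand, for 3 parts of the machinery (blue), 5 targets outside it (green) and 3 mating regulators (orange). TFIIIB and Rad9 peak just inside the gene, Sub1 near 50 to 60 bp, and NC2 just before the start and again toward the far end of the gene. Sua7 lies mostly in the flanks, and Ste12, Kar4 and Dig1 upstream.

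A small set of sharply placed peaks belonged to mating regulators. Ste12 is the transcription factor of the pheromone response, Kar4 is its partner at karyogamy genes, and Dig1 is an inhibitor that binds Ste12. In both of its libraries Ste12 had a peak at 21 tRNA genes, Kar4 at 29 and Dig1 at 18. All 18 Dig1 genes were among those of Ste12 (85.7% of its genes) and among those of Kar4 (62.1% of its genes), and 19 genes were shared by Ste12 and Kar4. Of other windows, 0.81% had a Ste12 peak, 0.468% a Kar4 peak and 2.01% a Dig1 peak in either library. Tec1, the partner of Ste12 at filamentation genes, had 12 peaks and none at a tRNA gene.

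Ste12 peaks stood at a nearly fixed distance upstream of the shared genes in each library, and Kar4 and Dig1 peaks at a few repeated distances. One of the 18 genes, YNCB0004W, shared its peaks with the nearer YNCB0005C, which leaves 17 places. The best-scored Ste12 peak stood at a median of -12 bp in the first library (range -14 to -7) and -34 bp in the second (range -36 to -32). Each Ste12 library thus kept its own distance to within 7 and 4 bp at 17 genes on 12 chromosomes, and the 2 libraries differed from each other. Kar4 stood at a median of -82 bp in both libraries, with ranges of -83 to -9 and -84 to -17. Dig1 stood at medians of -58 and -19 bp, with ranges of -75 to -14 and -82 to -14. The 18 genes were 71 to 96 bp long in 8 distinct lengths, and 11 had no coding gene start within 500 bp. These peaks were strong in their lists: the median score percentile at the shared genes was 90.1 and 91.8 for Ste12, 82.2 and 78.9 for Kar4 and 65.9 and 92.5 for Dig1. Peaks of the same libraries at other tRNA genes ranked lower, at 18.6 and 27.7 for Ste12 and 33.3 and 33.7 for Kar4. The shared genes were picked for a peak in every library, which favours strong peaks, so this contrast is not independent of the choice. They had a median of 62 targets each, against 52 for all tRNA genes. The 62 counts Ste12, Kar4 and Dig1 themselves, so part of this difference is set by the choice. Examples are SUP2, a tyrosine tRNA gene on chromosome IV (946312 to 946400), YNCA0006C on chromosome I (182522 to 182603) and YNCK0007W on chromosome XI (202999 to 203071). The 6 libraries are all TAP-tag libraries, with title numbers from 12862 to 17870. Positions of Ty elements and their long terminal repeats were not used here, so whether any lie at these genes was not tested.

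**Figure D4:**
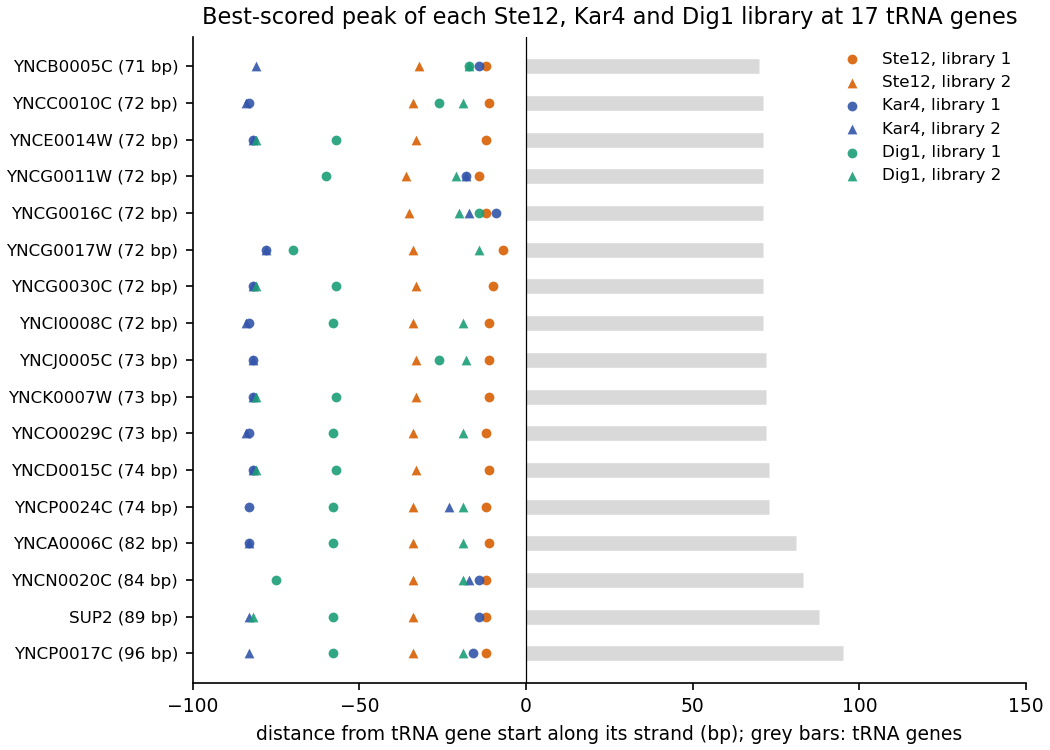
For 17 of the shared tRNA genes, ordered by length, symbols give the best-scored peak of each of 6 libraries by distance from the gene start along its strand, and grey bars the gene. Ste12 symbols form columns near -12 and -34 bp and Kar4 symbols near -83 and -16 bp, whatever the length of the gene.

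Proteins of replication origins reached few tRNA genes, and those with a peak in both libraries were largely the same ones. In both of its libraries the origin recognition complex subunit Orc2 had a peak at 9 genes, Orc4 at 11 and Orc5 at 8, and Cdc46, a subunit of the MCM helicase, at 12. Of other windows, 2.04% had an Orc4 peak and 2.33% a Cdc46 peak in either library, and no origin protein was called. These shares count either library, unlike the counts above. Library by library, Orc4 reached 4.73% and 4.36% of tRNA genes, against 1.33% and 1.76% of other windows. Cdc46 reached 4.36% and 6.18%, against 1.52% and 2.25%. Orc1 had a peak at 3 genes in both libraries and Orc6 at 2, although the Orc6 libraries reached 15 and 3 genes. Cdc47, another MCM subunit, reached none with 7 peaks. All of Orc2, Orc4 and Orc5 were at 8 genes, 6 of which had Cdc46 too. The genes that Orc1 and Orc6 reached in both libraries were among these 8. One of the 8, YNCJ0013C, shared the peaks of its neighbour YNCJ0014C and had none nearer to itself. Their peaks stood at no common distance: at YNCJ0006W (chromosome X, 204735 to 204806) they lay a median of 131 bp upstream of the gene start, written -131, and at YNCL0040W (chromosome XII, 793918 to 793989) 268 bp after it. As a list, the origin recognition complex had a 4.67% share of peaks there (SD 0.723 over 5 targets), and 440 others had 4.84% (two-sided permutation test over targets, p = 0.771, adjusted p = 0.870).

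Every tRNA gene had a peak of at least 1 target outside the machinery, and the median gene had 52 of the 696 targets (mean 55.6 ± 23.8, SD over genes, 1 to 175). Other genome windows had a median of 1 (0 to 572) and windows at 6002 coding gene starts a median of 12 (0 to 549). A window was called crowded when it had more than 46 targets, the 95th percentile over other windows. By this measure 171 tRNA genes (62.2%) were crowded, against 4.96% of other windows and 9.3% of coding gene starts. The most crowded places in the genome were not tRNA genes. The count leaned on single libraries: when a target had to have a peak in every library, with several libraries needed, the median tRNA gene had 9 targets and other windows 0, and 26 tRNA genes were above the 95th percentile. With only scores at or above the median of each list the median was 17, and 56 genes were crowded.

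**Figure D5:**
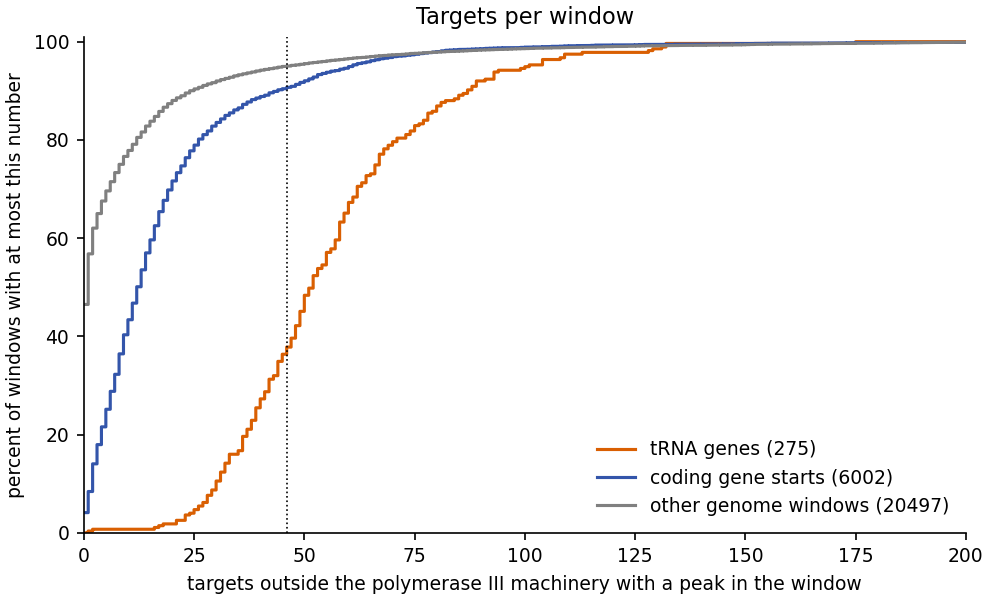
Lines give the percent of windows with at most the number of targets on the x axis, for tRNA genes, 6002 coding gene starts and 20497 other genome windows, and the dotted line marks 46 targets. The tRNA line rises between 25 and 100 targets, to the right of both others, and meets them above 130.

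Most of these targets stood on the gene itself. In the zone from 40 bp before to 30 bp after the gene the median was 45 targets (1 to 116), and in the remaining flanks it was 5 (0 to 81). tRNA genes with a coding gene start within 500 bp had a median of 49.5 targets (132 genes), and those without one had 55 (143 genes). For the flanks alone the order was opposite, with 8.5 targets near coding gene starts and 4 away from them. Which genes were often reached was similar across antibodies: over all tRNA genes the number of TAP-tag libraries and of other libraries had a Pearson r of 0.73 and a Spearman rho of 0.71, given as a description since the genes share libraries.

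YNCE0005W on chromosome V (86604 to 86685), 252 bp from the start of MCM3, had the most targets, 175, of which 81 stood in its flanks. The 175 were 25.1% of all targets outside the machinery and included 12 of 24 Mediator subunits, 9 of 10 TFIIH subunits and 42 of 138 sequence-specific factors. Of the next 9 genes, 6 belonged to pairs of tRNA genes 11 bp apart, whose windows overlap: YNCB0015W and YNCB0016W on chromosome II (405878 to 406031) with 132 each, YNCJ0013C and YNCJ0014C on chromosome X (374424 to 374577) with 129 and 128, and YNCD0011W and YNCD0012W on chromosome IV with 109 and 108. The fourth such pair, YNCJ0011W and YNCJ0012W, had 84 and 85. The 12 tRNA genes within 500 bp of another had a median of 97.5 targets (62 to 132), and the others 50. Single genes among the 10 highest were YNCP0022W (chromosome XVI, 131 targets), SUF1 (chromosome XV, 113), and YNCH0003C (chromosome VIII, 109), at which 4 of 5 origin recognition complex subunits also had a peak. SUF1, a frameshift suppressor gene, had all 7 RNA polymerase II subunits.

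The lowest numbers belonged to a pair of neighbours on chromosome III. YNCC0008W (149920 to 149991) had 1 target, Rad9, and YNCC0009C (151284 to 151356) had 2, Rad9 and Sub1. The polymerase III machinery itself was seldom there: 11 of its 35 full libraries had a peak at YNCC0008W and 21 at YNCC0009C, whereas 268 tRNA genes had a peak in all 35. Of the 20 libraries outside the machinery with 250 or more tRNA genes, 1 and 2 reached these genes. SUP53, a leucine tRNA gene beside LEU2 on chromosome III (90859 to 90972), had 17 targets, 29 of 35 machinery libraries and 8 of those 20 libraries. The low count at these 3 genes thus went with a low count of the machinery.

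Other genes had few targets with the machinery at full number. YNCE0023W had 16 targets, YNCE0026W 18, IMT3 and YNCE0008C 21, and YNCJ0015W, YNCJ0017C and YNCL0050C 23 each, all with 35 of 35 machinery libraries. SUP3, SUP4 and SUP7 each lacked 1 machinery library and had 87, 42 and 28 targets. YNCN0008C had 39 targets and 32 machinery libraries, with 28 of its targets in the flanks and 13 on the gene, and 15 of the 20 high libraries lacked it.

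Genes that encode the same tRNA differed in their number of targets. The annotation used gives no anticodons, so only families recognisable by gene symbol were compared, all with identical length within the family. The 4 initiator methionine genes (IMT1 to IMT4, 72 bp) had 21 to 67 targets, lowest at IMT3 and highest at IMT4. The 5 elongator methionine genes (EMT1 to EMT5, 73 bp) had 39 to 80, the 8 tyrosine genes of the SUP group (89 bp) 28 to 87, the 3 serine genes (82 bp) 36 to 94 and the 3 leucine genes (114 bp) 17 to 99. Family medians lay between 45 and 52.5, beside a median of 52 for all tRNA genes. On the gene zone alone the ranges were 17 to 59 for initiator methionine and 28 to 70 for tyrosine genes. Across chromosomes the median number of targets ran from 44 on II, XIII and XV to 63.5 on I, where there were 4 genes.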

How the data were processed

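The deposited lists give ChExMix peaks as 1 bp positions with a score up to 1000, per the file contents. Per the submitters' processing notes, the authors used BWA, SAMtools, Picard and the sacCer3 build. The authors' deposited score is undefined in the sources used here and served only to rank peaks within a list. Read depth is unknown. The 275 tRNA genes came from the R64 annotation, strand from the locus tag, and other windows tiled the rest of the genome. Groups came from the labels; 1 sample whose labels name 2 targets entered none. Replicates may be technical, as no separate cultures are stated. Lists of complexes, the members and the gene zone were chosen with earlier results of these data known. A target's value in tests was the mean percent of peaks at tRNA genes over libraries with at least 20 peaks, compared by two-sided permutation over targets (100000 resamples, Benjamini-Hochberg over 38 lists), checked on simulated data. All simulated lists had 10 targets, so the check did not cover shorter lists or values with many zeros. Named targets were the 25 called ones with most genes, the 10 with the largest and 5 with the lowest ratio, and 8 lists; named tRNA genes were the 10 highest, 10 lowest and 10 with fewest machinery libraries. Other named ones (Sua7, TOA1, TFIIE and TFIIH subunits, Rap1, enzymes, mating and origin proteins) were chosen after their values were seen. Anticodon families, planned for comparison, were replaced by families recognisable by symbol, and sequences were not used here. Python 3.11.15, numpy 2.4.6 and pandas 2.3.3 were used.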

Additional observations from a re-analysis of the deposited data

Results flagged for a closer look

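Peaks at tRNA genes also appeared in lists outside the comparisons. No share of other windows stands beside these counts, and several of the lists were long. A count above the limit given here therefore does not show enrichment at tRNA genes. The sample whose labels name 2 targets had a peak at 271 tRNA genes (1239 peaks), so 1 of 1 such libraries lay above the limit of 3 genes that a count of 0 allows. Of 22 heat-shock ChIP-exo libraries, 16 lay above that limit, with a median of 9 genes; TBP (Spt15) reached 274, and Rsc9, a subunit of the RSC remodeller, reached 111 and 115. Of 18 MNase-ChIP-seq libraries of histones and histone marks, 2 lay above it, both of H3K4me3, with 5 genes each and 5089 and 3887 peaks.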

How the results depend on the processing

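The number of complexes whose share of peaks differed was the least stable result. It was 5 of 38 as reported, 3 with 500 bp, 3 with only tRNA genes away from coding starts, 3 with at least 100 peaks and 0 with at least 5 peaks, 0 with only scores at or above the median of each list, 2 with title-number blocks of 1000 centred, 2 without title numbers from 19000 to below 21000, and 0 to 0 without replicate 1 or replicate 2. With the replicate block 1 list passed, the metabolic enzymes; replicate numbers name libraries only, and replicate 1 was higher for 133 and replicate 2 for 100 of the targets with both, so the numbers were not taken as pairs. The number of called targets was 33, 17 with only scores at or above the median of each list, and 41 to 81 without replicate 1 or 2; under the other 10 alternatives it lay from 29 to 38. Crowded tRNA genes numbered 171, but 89 with 500 bp, 56 with only scores at or above the median of each list, 26 with a peak in every library, 108 without title numbers from 19000 to below 21000, 267 on the gene zone, and 95 to 172 without replicate 1 or 2. The median number of targets per tRNA gene was 52, against 17 with only scores at or above the median of each list, 9 with a peak in every library and 26 to 42 without replicate 1 or 2, above the median of other windows in each case. The alternatives without title numbers from 19000 to below 21000, without Rad9, with Ydr1 counted as Ncb2 and on the gene zone were chosen after seeing the data. Of single values, 264 of 300 for named targets and 169 of 270 for named tRNA genes stayed within their spread or 1.5 times, and 79 of 116 for complexes kept their side of the threshold. No result reversed. The cause of these changes was not tested beyond the smaller number of peaks or libraries that the alternatives leave. Depth limits short lists: a list of few peaks cannot show many tRNA genes.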

Other observations

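Long tRNA genes carried somewhat more targets on the gene: the Spearman rho between gene length and targets in the gene zone was 0.22 over all tRNA genes, a weak relation given as a description, with no test, since a longer gene has a wider zone. The numbers of targets in the gene zone and in the flanks had a rho of 0.28. Among RNA polymerase II factors, all 6 libraries of antibodies to phosphorylated forms of the polymerase tail reached 6 to 11 tRNA genes each, with 857 to 1474 peaks. Such counts were common in long lists: of 307 libraries outside the machinery with 285 to 7062 peaks, 147 reached fewer than 14 tRNA genes. The mean share of peaks at tRNA genes for these antibodies was 0.705% (SD 0.149 over 3 targets), against 4.86% for 442 others. The difference did not pass (two-sided permutation test over targets, p = 0.451, adjusted p = 0.745).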
